A study of Mus musculus with 72 samples.

Results

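The genes described here are 28 marker genes of lymphocytes, the T, B and NK cells of the immune system, measured in mouse liver RNA. They were taken by symbol from 50307 genes in the count table, and each of the 28 symbols matched an Ensembl identifier. The list holds 14 T cell genes, 8 B cell genes and 6 NK and cytotoxic genes. The livers came from male and female mice of the strains DBA/2J (DBA) and C57BL/6J (B6; the strain field of the labels spells it C56BL/6J), all fed a Western diet for 12 weeks with a low, a control or a high isoleucine content and all fasted for 16 h before collection. The 72 libraries form 12 groups of 6, which are DBA males, DBA females, B6 males and B6 females, each on low, control and high isoleucine. No group ate another diet and no group was fed at collection, so every value here is from a fasted liver on a Western diet. By the design text the mice were 6 weeks old when the diets began, but the treatment text and the age field give 18 weeks. The labels name no batch and do not say that each library came from a separate mouse, so p-values measure only how much these libraries vary, which may in part be technical variation.

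T cells recognise antigen through a receptor whose signal is carried by the CD3 chains and the kinases LCK and ZAP70. B cells signal through surface immunoglobulin paired with CD79A and CD79B, and plasma cells, their antibody-secreting descendants, make large amounts of immunoglobulin RNA. NK cells and cytotoxic T cells kill with perforin and granzymes. The liver holds resident NK and T cells in its sinusoids, but hepatocytes supply most of its RNA, so lymphocyte genes are expected at low levels in whole-liver RNA. The liver label was met by 6 hepatocyte marker genes, whose summed level in a library reached up to 126747 counts per 1000000 counts (CPM), against at most 140 CPM for the 8 B cell genes together. In whole tissue, fewer cells of a type, less RNA per cell and more RNA from other cells cannot be told apart, because CPM is a share of the library. This holds for every result below.

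The start regions of 4 members are shown because Cd3d and Cd3g, which encode the delta and gamma chains of CD3, are divergent neighbours that fell together below, and because Lck and Gzmb, which encodes the cytotoxic protease granzyme B, had some of the strain and sex differences described. The sequences are the 250 bases before the gene start in RefSeq's GRCm38.p6, read 5′ to 3′ along the gene's strand. They are reference sequence and therefore of the B6 strain. The coordinates are chr9:44981536-44981785 (plus strand) for Cd3d, chr9:44980432-44980681 (minus strand) for Cd3g, chr4:129573642-129573891 (minus strand) for Lck and chr14:56262335-56262584 (minus strand) for Gzmb. Capitals mark the ETS core AGGAAG or its complement CTTCCT and the RUNX core TGTGGTT or its complement.
Cd3d: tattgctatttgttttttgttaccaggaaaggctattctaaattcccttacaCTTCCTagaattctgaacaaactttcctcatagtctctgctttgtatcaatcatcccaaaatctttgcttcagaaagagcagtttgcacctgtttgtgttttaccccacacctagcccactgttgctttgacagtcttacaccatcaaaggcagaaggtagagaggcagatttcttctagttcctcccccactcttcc
Cd3g: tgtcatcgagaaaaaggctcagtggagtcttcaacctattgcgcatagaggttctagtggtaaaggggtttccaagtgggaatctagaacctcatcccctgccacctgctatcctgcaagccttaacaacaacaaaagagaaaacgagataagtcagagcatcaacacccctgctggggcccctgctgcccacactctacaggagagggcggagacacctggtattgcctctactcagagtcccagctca
Lck: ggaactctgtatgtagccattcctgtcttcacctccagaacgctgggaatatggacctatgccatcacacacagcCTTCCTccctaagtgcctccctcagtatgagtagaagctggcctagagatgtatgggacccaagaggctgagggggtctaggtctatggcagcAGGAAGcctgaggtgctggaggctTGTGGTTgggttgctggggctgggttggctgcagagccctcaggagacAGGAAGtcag
Gzmb: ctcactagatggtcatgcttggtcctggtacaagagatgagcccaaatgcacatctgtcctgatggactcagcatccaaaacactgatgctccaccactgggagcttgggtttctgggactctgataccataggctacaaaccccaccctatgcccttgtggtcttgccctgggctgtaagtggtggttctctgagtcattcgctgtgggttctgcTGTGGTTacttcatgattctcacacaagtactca
The starts of Cd3g and Cd3d lie 1355 bases apart on opposite strands, and Cd3e, which encodes the epsilon chain, is the next of the cluster on chromosome 9, with its annotated end 11401 bases from that of Cd3d. RefSeq windows were found for 20 of the 28 members. With both strands searched, AGGAAG was present in 12 of those 20 windows, against 29.5% of all 32851 windows of this length. TGTGGTT was present in 4 of the 20 (Gzma, Gzmb, Lck and Ncr1), against 4.40% of all windows, and the EBF core CCCNNGGG in 4 (Bank1, Cd27, Prf1 and Zap70), against 11.8%. The Cd3g window held none of the 3 cores. A match is a description of letters and not a site of binding.

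Of the 28 genes, 23 had a mean above 0.5 CPM in at least 1 of the 12 groups and 7 in every group. CPM here is counts per 1000000 of the library size scaled by TMM, a factor that corrects for differences in library composition. The 7 were Zap70, Cd52 (a small glycosylphosphatidylinositol-anchored protein of lymphocytes), Cd79b, Ighm (the mu heavy chain), Igkc (the kappa light chain), Jchain (the joining chain of polymeric antibody) and Bank1 (a B cell scaffold protein). All 8 B cell genes passed 0.5 CPM in some group and 5 in every group, against 11 and 2 of the 14 T cell genes and 4 and 0 of the 6 NK and cytotoxic genes. Cd8a, Cd8b1, Cd5, Prf1 (perforin) and Ncr1 (the NK receptor NKp46) stayed below 0.5 CPM in all groups. Nearest to the limit were Cd27, a costimulatory receptor gene, with a highest group mean of 0.506 CPM in B6 females on control, and Cd8a, with 0.498 CPM in B6 males on high isoleucine.

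The number of genes above 0.5 CPM differed between groups. With low, control and high isoleucine it was 10, 9 and 8 in DBA males, 12, 13 and 12 in DBA females, 13, 11 and 19 in B6 males and 19, 23 and 21 in B6 females. B6 females on control gave the highest group mean for 18 of the 28 genes, and DBA males gave the lowest for 22, of which 13 were on high, 8 on control and 1 on low isoleucine. Library totals lay between 13.0 and 51.1 in units of 1000000 counts with a median of 24.1, and the median totals of DBA and B6 libraries were 23.3 and 24.4 in the same unit. A limit of 3 counts corresponded to 0.0542 to 0.245 CPM, so a value below that range rests on very few reads. Intervals and limits of this kind cover counting error only.

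**Figure D1:**
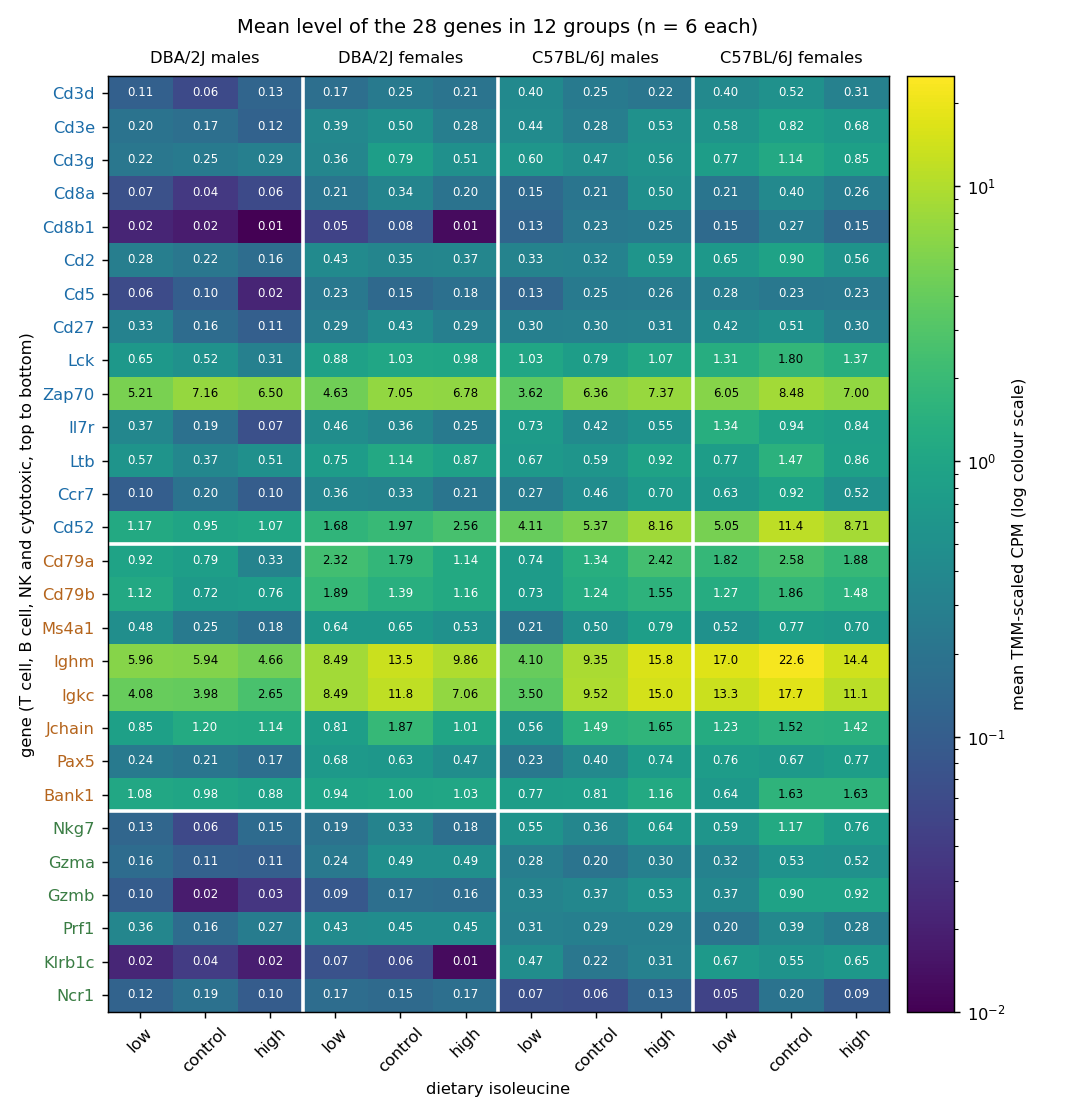
Mean level of each of the 28 genes (rows) in each of the 12 strain, sex and diet groups (columns), in TMM-scaled CPM, with colour on a log scale and the value printed in each cell (6 libraries per group). The B6 female columns hold the highest value of most rows, and only Zap70, Cd52, Cd79b, Ighm, Igkc, Jchain and Bank1 exceed 0.5 CPM in all 12 columns.

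Divided by exon length, immunoglobulin RNA led the list. Over all 72 libraries Igkc averaged 16.9 CPM per kilobase and Ighm 5.82 CPM per kilobase, followed by Cd52 at 3.66, Zap70 at 2.12 and Cd79a at 1.03 CPM per kilobase. The order of Cd52 and Zap70 differed by strain. Zap70 stood above Cd52 in DBA males (2.10 and 0.898 CPM per kilobase) and DBA females (2.06 and 1.74), and Cd52 above Zap70 in B6 males (4.95 and 1.93) and B6 females (7.06 and 2.40). The 3 CD3 chain genes lay far below, at 0.174 CPM per kilobase for Cd3g, 0.139 for Cd3d and 0.102 for Cd3e. Lck, whose product acts just before ZAP70 at the receptor, averaged 0.334 CPM per kilobase. Zap70 was thus several times above the CD3 chain genes and Lck per length, and it also kept apart from them in the mean strain and sex comparisons below. Cd5, a receptor that dampens T cell signalling, was lowest over all libraries at 0.0358 CPM per kilobase, while in DBA males and DBA females Klrb1c was lowest, at 0.00937 and 0.0162 CPM per kilobase.

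Most of these genes had lower levels in DBA livers than in B6 livers. The comparison averaged the strain difference over both sexes and the 3 diets, with edgeR's quasi-likelihood test and Benjamini-Hochberg adjustment over 14954 genes. Of the 26 members with enough counts to be tested, 0 were higher and 20 were lower in DBA at an adjusted p below 0.05. Of all genes tested, 34.3% were higher and 31.4% lower. The members' median log2 fold change was -0.84, beside 0.01 over all genes. A gene could pass the filter through its level in B6 alone, so the fit was repeated on all 28 genes without the filter, which gave 21 lower and 1 higher. The 21st was Cd8b1, the beta chain of the CD8 co-receptor, with 30 counts over 36 DBA libraries and 182 counts over 36 B6 libraries. The gene that was higher was Ncr1, whose log2 fold change was 0.66 ± 0.26 (SE, edgeR adjusted p = 0.0322), with 0.149 CPM in DBA against 0.0998 CPM in B6.

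The T cell receptor signalling genes were lower in DBA with the exception of Zap70. Cd3e ranged over 0.0436, 0.237 and 0.788 CPM (lowest, median and highest of 36 libraries) in DBA livers, against 0.0988, 0.507 and 1.90 CPM in B6 livers. The strains overlapped, with 34 of 36 DBA libraries below the B6 mean of their own sex and diet. The log2 fold change was -1.08 ± 0.18 (SE, edgeR adjusted p = 4.99e-07). Cd3d averaged 0.153 ± 0.115 CPM in DBA and 0.352 ± 0.198 CPM in B6 (SD, n = 36 each; log2 fold change -1.23), and Cd3g 0.405 ± 0.283 CPM in DBA and 0.731 ± 0.399 CPM in B6 (log2 fold change -0.94). Lck had 0.144, 0.631 and 1.73 CPM in DBA livers and 0.573, 1.13 and 3.28 CPM in B6 livers, with a log2 fold change of -0.82 ± 0.12. All 4 of these genes thus lay lower in DBA by a similar amount. Zap70 averaged 6.22 ± 1.59 CPM in DBA and 6.48 ± 2.54 CPM in B6, and its log2 fold change of -0.03 did not pass the test.

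Other T cell genes were lower in DBA as well. Cd52 ranged over 0.498, 1.42 and 4.29 CPM in DBA livers and 2.32, 6.41 and 20.1 CPM in B6 livers, where the log2 fold change was -2.17 ± 0.11 (SE, adjusted p = 2.57e-27). Il7r, the receptor chain for interleukin 7 that keeps naive and memory T cells alive, had 0, 0.294 and 0.781 CPM in DBA against 0.289, 0.579 and 3.22 CPM in B6 (-1.63 ± 0.18). Ccr7, which guides T cells to lymph nodes, had 0, 0.198 and 0.607 CPM in DBA against 0.0905, 0.494 and 1.36 CPM in B6 (-1.46 ± 0.16). For each of these 3 genes all 36 DBA libraries lay below the B6 mean of their own sex and diet. The ranges of the strains overlapped. Cd5 (-1.22), Cd8a (-1.20), the adhesion receptor gene Cd2 (-0.85), Cd27 (-0.51) and Ltb, which encodes the lymphoid organ cytokine lymphotoxin beta (-0.35), were also lower, so that 12 of the 13 tested T cell genes fell in DBA.

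The cytotoxic and NK genes split. Klrb1c, which encodes the NK1.1 antigen that is used to stain NK cells of B6 mice and is not detected by that antibody on DBA/2 cells, had 0, 0.0319 and 0.187 CPM in DBA livers and 0.0817, 0.459 and 1.32 CPM in B6 livers. The counts behind it were 34 over the DBA libraries, 16 of which were at 0, and 451 over the B6 libraries, and the log2 fold change was -3.55 ± 0.25 (SE, adjusted p = 8.02e-21). Gzmb had 0, 0.0740 and 0.316 CPM in DBA against 0.0521, 0.50 and 2.30 CPM in B6 (-2.70 ± 0.25). Nkg7, a protein of cytotoxic granules, had 0, 0.170 and 0.462 CPM in DBA against 0.0817, 0.642 and 2.60 CPM in B6 (-2.02 ± 0.17). Each of these 3 genes lay below the B6 mean of the same sex and diet in 36 of 36 DBA libraries. Gzma, the gene of granzyme A, differed less (-0.53 ± 0.23, adjusted p = 0.0380), with 0.267 CPM on average in DBA and 0.359 CPM in B6, and lost the call when any of 12 libraries was left out. Prf1 averaged 0.354 CPM in DBA and 0.293 CPM in B6 and did not pass the test (0.21). Klrb1c, the granzymes and the immunoglobulin genes have close relatives in the genome, and the reads of both strains were counted on a B6 reference; whether that affects the DBA counts was not tested.

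Of the 8 B cell genes 4 were lower in DBA. Igkc ranged over 1.39, 5.66 and 22.1 CPM in DBA livers and 1.97, 9.14 and 55.1 CPM in B6 livers, and its log2 fold change was -0.90 ± 0.18 (SE, adjusted p = 9.08e-06). Ighm had 4.01, 6.91 and 24.8 CPM in DBA and 2.04, 10.4 and 70.3 CPM in B6 (-0.69 ± 0.17), and Cd79a 0.183, 0.992 and 4.78 CPM in DBA and 0.178, 1.49 and 5.19 CPM in B6 (-0.69 ± 0.16). The ranges overlapped widely for all 3. Pax5, the transcription factor that fixes B cell identity, was the fourth (-0.64 ± 0.21, adjusted p = 0.00536). Cd79b (-0.23, adjusted p = 0.0954), Ms4a1, the CD20 gene (-0.37, adjusted p = 0.0832), Jchain (-0.16) and Bank1 (-0.08) did not pass.

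**Figure D2:**
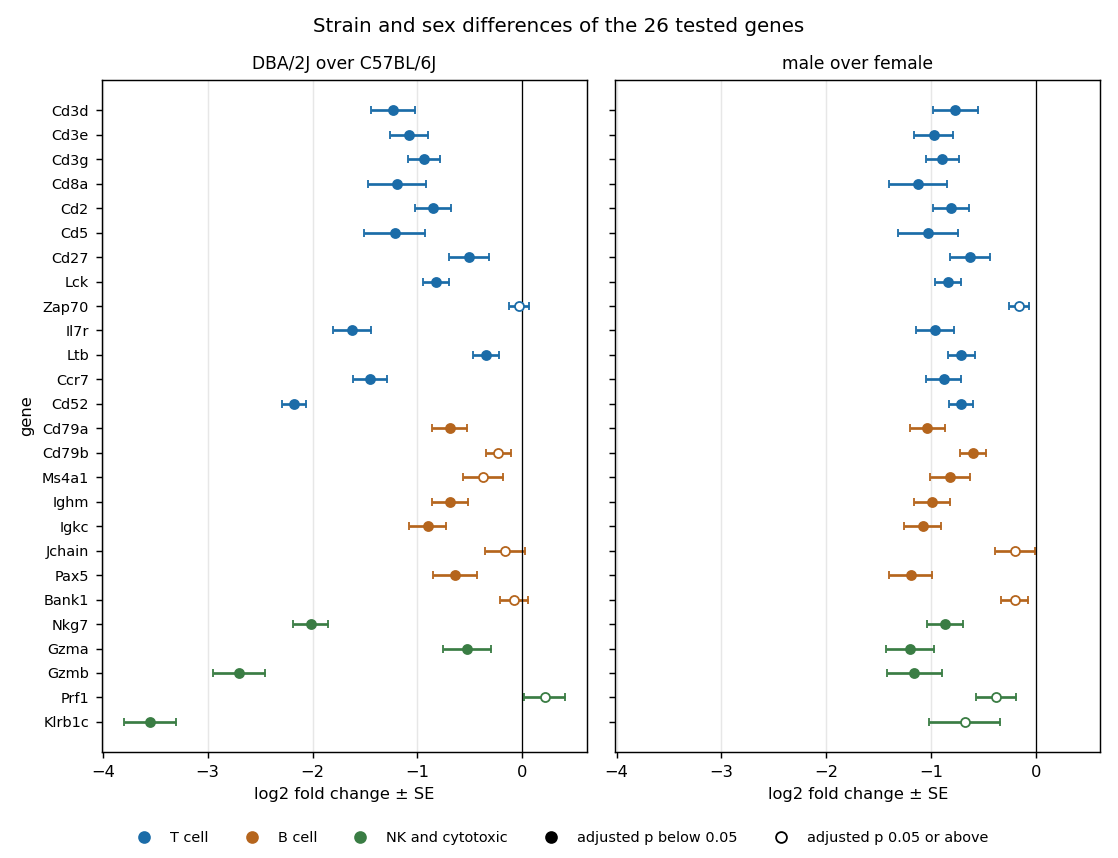
Log2 fold change with its standard error (bars) for the 26 tested genes, DBA against B6 (left panel) and male against female (right panel), each averaged over 6 strata; filled points have an adjusted p below 0.05. In the left panel the points run from -3.55 for Klrb1c to 0.21 for Prf1, and in the right panel every point lies below 0.

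The strain difference was counted separately in each sex, a split chosen after the data had been seen. In males 21 members were lower in DBA, beside 28.7% of all genes, and in females 13 were lower, beside 26.4% of all genes. Prf1 was at 0.70 in females (log2 fold change, adjusted p = 0.0183), but at an adjusted p of 0.0901 without DBA female low library 6 and of 0.0506 with a block on the number in the library titles, and at -0.28 in males (adjusted p = 0.396). With that block Pax5, Gzma, Ltb and Cd27 no longer passed in the mean of both sexes (adjusted p = 0.0697, 0.0525, 0.0884 and 0.108). On the control diet alone 0 members were higher and 14 lower. The share of all genes on that diet alone is not given here, so these numbers have no general rate beside them. The summed level of the 14 T cell genes was 11.4 ± 2.68 CPM in DBA and 20.4 ± 7.34 CPM in B6 (SD, n = 36 each), a ratio of 0.561. For the 8 B cell genes the sums had a median of 17.7 CPM in DBA and 26.7 CPM in B6. For the 6 NK and cytotoxic genes they had a median of 0.942 CPM in DBA and 2.32 CPM in B6.

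**Figure D3:**
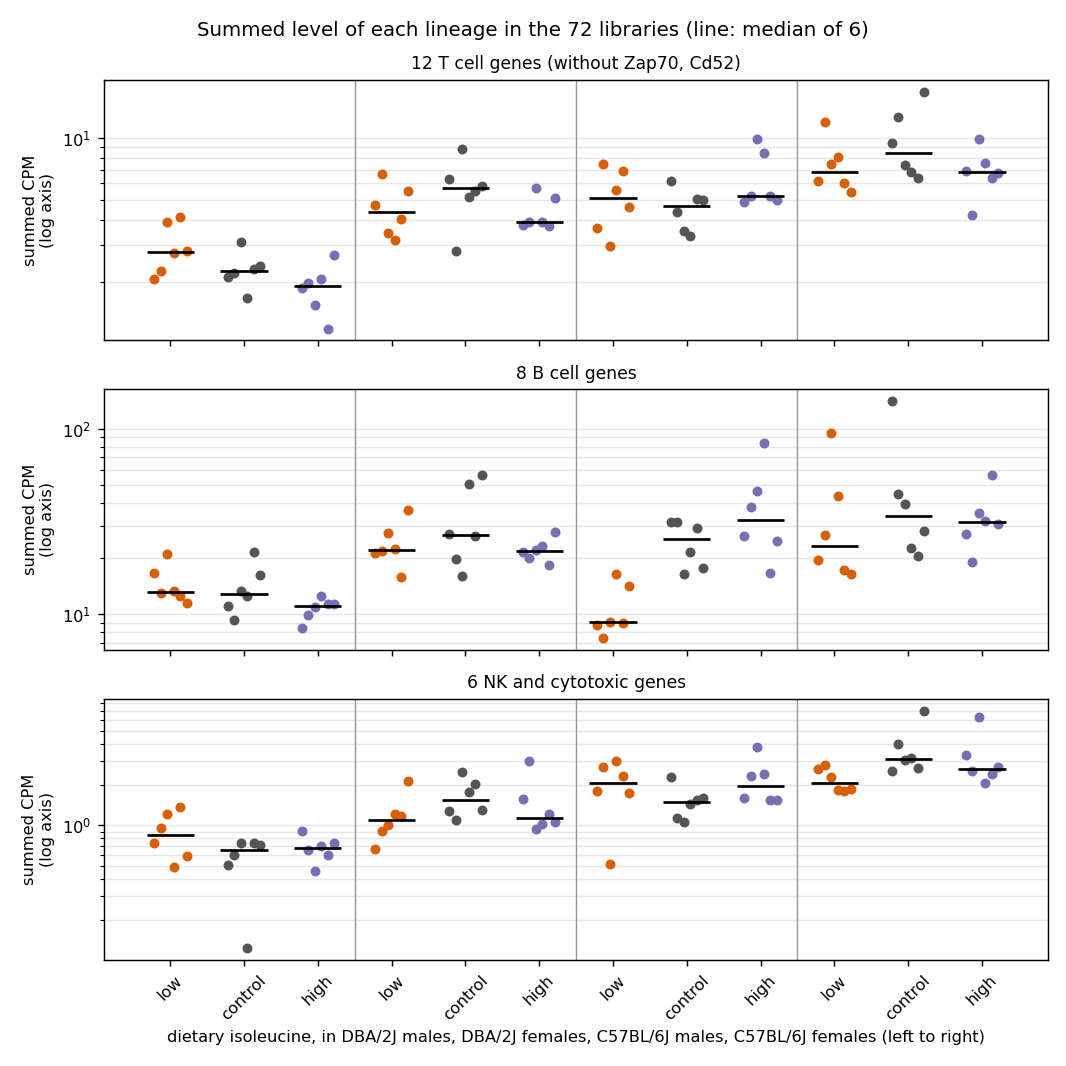
Summed CPM per library (points, log axis) of 12 T cell genes (without Zap70 and Cd52), 8 B cell genes and 6 NK and cytotoxic genes in the 12 groups, with the group median as a line. DBA groups stand left of B6 groups. The T and NK sums of B6 females have the highest medians, and single libraries stand far above their group in the B cell panel, up to 140 CPM.

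Most members had lower levels in male livers than in female livers. Averaged over both strains and the 3 diets, 0 of 26 members were higher and 21 were lower in males, beside 24.6% of all genes higher and 25.1% lower. The members' median log2 fold change was -0.85 and that of all genes -0.00. Without the filter the same number, 21 of 28, was lower and 0 were higher, and all 28 had a log2 fold change below 0. By kind, 12 of 13 tested T cell genes, 6 of 8 B cell genes and 3 of 5 NK and cytotoxic genes fell.

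Among the receptor chains, Cd3e ranged over 0.0577, 0.222 and 1.08 CPM in males (lowest, median and highest of 36 libraries) and 0.0436, 0.479 and 1.90 CPM in females. Its log2 fold change was -0.98 ± 0.18 (SE, edgeR adjusted p = 8.83e-06), and 32 of 36 male libraries lay below the female mean of their own strain and diet. Cd3g (-0.89 ± 0.16) and Cd3d (-0.77 ± 0.21) behaved likewise. Cd79a had 0.178, 0.945 and 4.51 CPM in males against 0.483, 1.67 and 5.19 CPM in females (-1.04 ± 0.16, adjusted p = 2.70e-07), and Cd79b averaged 1.02 ± 0.504 CPM in males and 1.51 ± 0.573 CPM in females (SD, n = 36 each; -0.60 ± 0.12). The sexes overlapped for each of these 5 genes, and the male median was lower for Cd3e and Cd79a. Lck was lower as well, at an average of 0.727 CPM in males and 1.23 CPM in females (-0.84 ± 0.12). Of 36 male libraries, 33 lay below the female mean of their own strain and diet.

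Immunoglobulin and cytotoxic genes were also lower in males. Ighm had 2.04, 5.77 and 36.7 CPM in males and 5.74, 10.8 and 70.3 CPM in females (log2 fold change -0.99 ± 0.17), and Igkc 1.39, 4.45 and 31.2 CPM in males and 4.28, 8.66 and 55.1 CPM in females (-1.08 ± 0.18). Gzma had 0, 0.139 and 0.793 CPM in males against 0.133, 0.380 and 1.36 CPM in females (-1.20 ± 0.23, adjusted p = 1.01e-05). The median male library was close to the lowest female library for Ighm and Gzma, though single male libraries reached high values. Pax5 (-1.20), Gzmb (-1.16), Cd8a (-1.13), Cd5 (-1.03), Il7r (-0.96), Ccr7 (-0.88), Nkg7 (-0.86), Ms4a1 (-0.82), Cd2 (-0.81), Cd52 (-0.71), Ltb (-0.71) and Cd27 (-0.63) fell too. Zap70 (-0.16), Jchain (-0.20), Bank1 (-0.20), Prf1 (-0.39, adjusted p = 0.0868) and Klrb1c (-0.68, adjusted p = 0.0886) did not pass. Zap70, Jchain, Bank1 and Prf1 were the members called in neither the mean strain nor the mean sex comparison.

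The sex difference was also counted within each strain, a split chosen after the data had been seen. Within DBA, 22 members were lower in males, beside 24.7% of all genes, and within B6, 17 were lower, beside 13.1% of all genes. These calls included genes that did not pass in the mean of both strains. They were Prf1 in DBA (log2 fold change -0.87, edgeR adjusted p = 0.00473) and Klrb1c (-0.94, adjusted p = 0.00191) and Zap70 (-0.36, adjusted p = 0.0368) in B6. Zap70 lost the call when any of 13 libraries was left out. In the mean of both strains on the control diet alone 21 were lower and 0 higher, again without the share of all genes on that diet. The difference between strains in the sex effect was tested as an interaction, which 22.3% of all genes passed. The single member that passed was Cd8a, the alpha chain of CD8, with a difference of -1.94 ± 0.56 (log2, DBA minus B6, SE, adjusted p = 0.00753). Its sex effect was -2.10 in DBA and -0.15 in B6. In DBA males Cd8a lay at 0.0689, 0.0367 and 0.0571 CPM on low, control and high isoleucine, against 0.209, 0.345 and 0.195 CPM in DBA females. These male means lay near or below the low end of the 0.0542 to 0.245 CPM that 3 counts correspond to. Some DBA male libraries lay at 0 CPM, so the difference rests on very few reads.

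Markers of other immune cells moved with strain and sex. Of 8 genes expressed by all leukocytes, 8 were lower in DBA, with summed levels of 56.0 to 117 CPM in DBA libraries and 83.0 to 221 CPM in B6 libraries, and in males 7 were lower and 1 higher (56.0 to 202 CPM in males, 64.5 to 221 CPM in females). Of 8 Kupffer cell markers, genes of the resident liver macrophages, 6 were lower in DBA (100.5 to 340 CPM in DBA, 82.1 to 931 CPM in B6) and 8 were lower in males (82.1 to 626 CPM in males, 181 to 931 CPM in females). Of 8 monocyte and dendritic cell markers, 8 were lower in DBA and 2 were lower and 1 higher in males. Their part in the lymphocyte results was not tested. Red cell and platelet markers went the other way in males, with 5 of 7 higher and 0 lower.

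Most lymphocyte genes outside the list went the same way, though the summed level of the further T cell genes differed little by sex. Of 17 further T cell genes tested, 15 were lower and 1 higher in DBA, and 15 lower and 2 higher in males. Trac, the constant region of the T cell receptor alpha chain, fell by 1.97 in DBA and by 1.14 in males, and Thy1, a surface protein of T cells, by 1.15 in DBA and by 0.99 in males (log2). Cd4, a co-receptor of helper T cells that macrophages of some species also carry, was higher in DBA (0.97 ± 0.15) and in males (1.24 ± 0.15). The further T cell genes, tested or not, summed to a mean of 13.0 CPM in DBA and 16.8 CPM in B6. That mean was 14.5 CPM in males and 15.3 CPM in females. Within DBA it was higher in males (13.5 CPM) than in females (12.6 CPM), and within B6 lower (15.5 and 18.1 CPM). Of 19 further B and plasma cell genes, 12 were lower and 1 higher in DBA, and 14 lower and 1 higher in males, with Cd37, a tetraspanin gene of B cells, at -0.47 in DBA and -0.86 in males. Of 8 further NK and cytotoxic genes, 6 were lower and 1 higher in DBA, and 6 were lower and 0 higher in males.

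Low isoleucine changed few of these genes. As the mean effect of the 4 strain and sex classes against control, 1 of 26 members rose and 6 fell, beside 17.8% of all genes that rose and 20.0% that fell, so the share of members that fell was close to that of all genes and the share that rose was smaller. Their median log2 fold change was -0.14. The CD3 chain genes Cd3d (0.12), Cd3e (-0.01) and Cd3g (-0.37, adjusted p = 0.130) and the B cell receptor genes Cd79a (-0.20) and Cd79b (-0.07) did not pass. Cd3e averaged 0.401 ± 0.191, 0.444 ± 0.402 and 0.402 ± 0.301 CPM on low, control and high isoleucine (SD, n = 24 each). None of the 5 tested NK and cytotoxic genes passed.

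Zap70 had the lowest p of the members that fell. The CD3 chain genes did not pass, so the fall of Zap70 does not stand for the T cell genes as a set. Zap70 ranged over 2.26, 4.90 and 10.5 CPM on low isoleucine (lowest, median and highest of 24 libraries), against 3.95, 7.66 and 10.7 CPM on control. The diets overlapped, but 23 of 24 low isoleucine libraries lay below the control mean of their own class, and the log2 fold change was -0.58 ± 0.12 (SE, adjusted p = 4.97e-05). By class it was -0.46 in DBA males, -0.60 in DBA females, -0.78 in B6 males and -0.48 in B6 females. Jchain had 0.156, 0.739 and 3.28 CPM on low isoleucine against 0.327, 1.20 and 4.75 CPM on control (-0.86 ± 0.24, adjusted p = 0.00273), and it too was below the class mean in 23 of 24 libraries. B6 female control library 1, at 4.75 CPM of Jchain beside a group median of 0.816 CPM, raised the mean of that class. Zap70 and Jchain were the falls that also passed in a fit that blocks on the number in the library titles (adjusted p = 0.00219 for Zap70 and 0.0207 for Jchain).

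Il7r was the gene that rose, to 0.247, 0.481 and 3.22 CPM on low isoleucine against 0.107, 0.409 and 1.34 CPM on control (log2 fold change 0.67 ± 0.21, SE, adjusted p = 0.00793). It was above its class mean in 17 of 24 low isoleucine libraries, and the block on title numbers gave an adjusted p of 0.0507. Igkc (-0.58 ± 0.21, adjusted p = 0.0260) and Ighm (-0.57 ± 0.21, adjusted p = 0.0287) fell, with 20 of 24 low isoleucine libraries below the control mean of their class for each. The B6 female control means were 17.7 CPM for Igkc and 22.6 CPM for Ighm, above the group medians of 10.2 and 14 CPM. Library 1 of that group raised these means, so the counts below them are no separate support. Igkc and Ighm lost the call without B6 female control library 1, at log2 fold changes of -0.39 and -0.37 and adjusted p-values of 0.108 for Igkc and 0.121 for Ighm, and that library alone held 55.1 CPM of Igkc and 70.3 CPM of Ighm. Ccr7 (-0.51, adjusted p = 0.0365) and Cd52 (-0.38, adjusted p = 0.0237) fell as well, but Ccr7 lost the call when any of 13 libraries was left out (adjusted p up to 0.0656) and Cd52 without B6 female control library 6 (adjusted p = 0.0532). The block gave adjusted p-values of 0.101 for Igkc, 0.0836 for Ighm, 0.0587 for Ccr7 and 0.122 for Cd52.

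Beside these values, 6 of 8 Kupffer cell markers and 4 of 8 leukocyte markers fell with low isoleucine, while 5 of 6 hepatocyte markers rose. Summed leukocyte markers lay at 64.5 to 128 CPM on low isoleucine and 71.5 to 221 CPM on control. Among 12 tested genes of lymphocyte attraction and survival, 0 rose and 5 fell. Cxcl10 and Cxcl9, which encode T cell attractants, fell by 1.46 and by 1.15 on the log2 scale, and Il7, the gene of the ligand of the interleukin 7 receptor, fell by 1.12 while Il7r rose. Il15, a survival factor of NK and memory T cells, fell by 0.41. The part of these shifts in the lymphocyte results was not tested.

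By class, low isoleucine changed 0 members in DBA males (beside 17.7% of all genes), 1 in DBA females (11.8%), 2 in B6 males (5.0%) and 5 in B6 females (20.8%). The gene in DBA females was Cd3g (-1.13, adjusted p = 0.0378), and those in B6 males were Zap70 (-0.78, adjusted p = 0.0367) and Igkc (-1.47, adjusted p = 0.0349). None of these 3 calls was stable. That of Cd3g was lost when any of 7 libraries was left out (adjusted p = 0.174 without DBA female control library 3), that of Zap70 for any of 7 and that of Igkc for any of 8. The block gave adjusted p-values of 0.155, 0.343 and 0.104 in that order. In B6 females Bank1 fell to 0.645 ± 0.173 CPM on low isoleucine, against 1.63 ± 0.533 CPM on control (SD, n = 6 each; log2 fold change -1.33, adjusted p = 0.00188). Cd52 fell to 5.05 ± 1.49 CPM against 11.4 ± 5.10 CPM (-1.18, adjusted p = 5.13e-04). Gzmb (-1.32), Nkg7 (-0.99) and Ltb (-0.92) fell too, but lost the call without B6 female control library 6 (log2 fold changes -0.88, -0.58 and -0.67, adjusted p = 0.202, 0.252 and 0.118), in which Nkg7 reached 2.60 CPM beside a group median of 0.886 CPM.

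Differences between classes in the response to low isoleucine were tested as interactions. For the strain difference, which 1.39% of all genes passed, the member that passed was Cd79b (1.23 ± 0.30, log2, DBA minus B6, SE, adjusted p = 0.0206). It averaged 1.12, 0.718 and 0.765 CPM in DBA males, 1.89, 1.39 and 1.16 CPM in DBA females, 0.726, 1.24 and 1.55 CPM in B6 males and 1.27, 1.86 and 1.48 CPM in B6 females on low, control and high isoleucine. Low isoleucine thus had the higher mean than control in DBA and the lower one in B6. For the sex difference, which 6.68% of all genes passed, Nkg7 (1.65 ± 0.44, adjusted p = 0.0133), Ltb (1.15 ± 0.31, adjusted p = 0.0154) and Gzmb (2.03 ± 0.65, adjusted p = 0.0452) passed, each with the more positive effect in males. Nkg7 averaged 0.133 and 0.0569 CPM on low and control in DBA males, 0.549 and 0.362 CPM in B6 males, 0.189 and 0.334 CPM in DBA females and 0.588 and 1.17 CPM in B6 females. The Gzmb difference lost the call when any of 24 libraries was left out, and none of the 4 differences passed with the block on title numbers.

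High isoleucine against control gave no call. As the mean of the 4 classes, 0 of 26 members passed edgeR's test, as did 0% of all genes. By DESeq2, by limma with library weights, with the block, with RLE scaling and with other filters the count was also 0, and 1 member, Ccr7 (log2 fold change -0.44), had an unadjusted p below 0.05, at 0.0303. By class 0 members passed in DBA males (beside 0.0134% of all genes), DBA females (0.00669%), B6 males (4.51%) and B6 females (0%). Unadjusted p-values below 0.05 were seen for 5, 1, 5 and 2 members in these classes. The share of all genes at that unadjusted limit is not given here, so these numbers have no general rate beside them. Zap70 averaged 6.91 ± 1.97 CPM on high isoleucine and 7.26 ± 1.93 CPM on control (SD, n = 24 each), and Jchain 1.31 ± 0.872 CPM on high isoleucine and 1.52 ± 1.07 CPM on control.

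**Figure D4:**
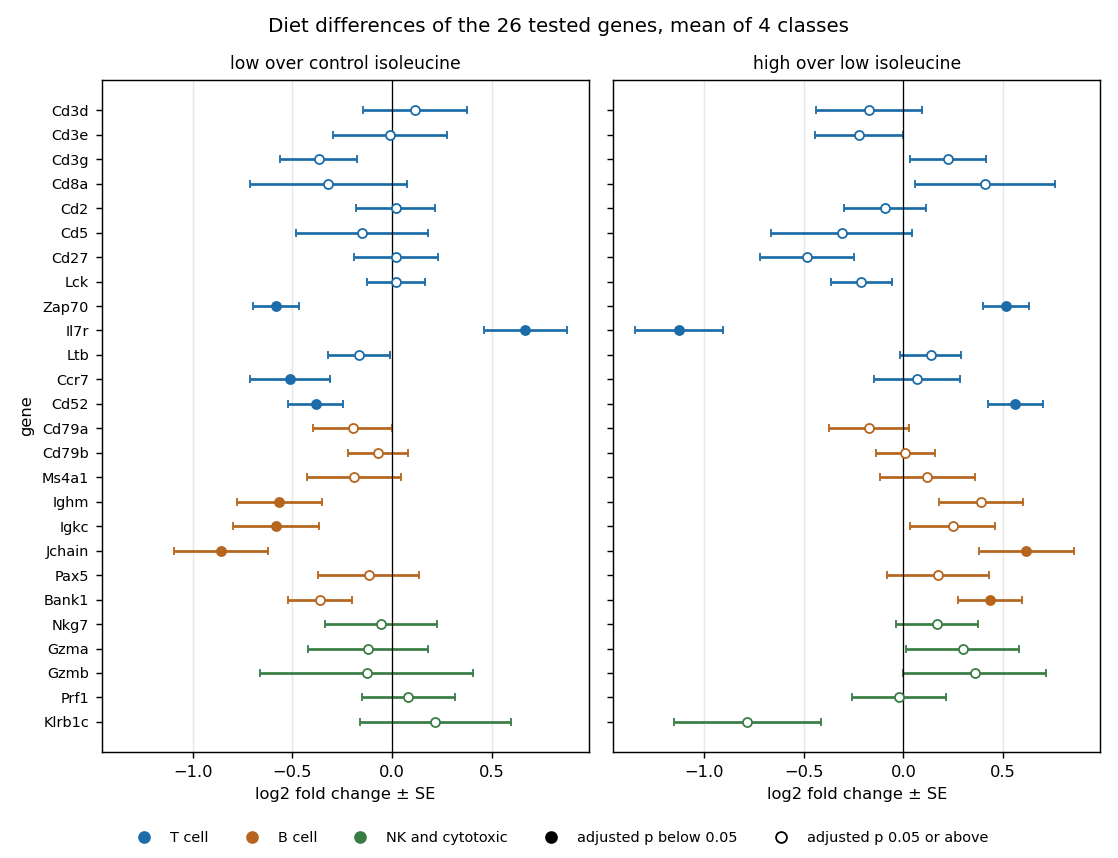
Log2 fold change with its standard error (bars) for the 26 tested genes in the mean of the 4 classes. The left panel is low against control and the right panel high against low isoleucine. Filled points have an adjusted p below 0.05. Il7r is filled at 0.67 for low against control and at -1.13 for high against low, and Zap70 at -0.58 and 0.52. The panels share libraries and are not independent.

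Between the high and low diets, 4 members were higher and 1 lower with high isoleucine, beside 22.9% of all genes higher and 20.7% lower. This comparison shares its low isoleucine libraries with the one above. Cd52 averaged 5.12 ± 4.02 CPM on high and 3.0 ± 1.92 CPM on low isoleucine (SD, n = 24 each), and its log2 fold change was 0.56 ± 0.14 (SE, adjusted p = 5.48e-04). Zap70 was higher by 0.52 ± 0.12 (adjusted p = 2.01e-04), and for both genes 20 of 24 high isoleucine libraries lay above the low isoleucine mean of their class. Jchain (0.62 ± 0.24, adjusted p = 0.0292) and Bank1 (0.43 ± 0.16, adjusted p = 0.0234) were higher, but Jchain lost the call without B6 male high library 4 (adjusted p = 0.0942) and Bank1 without B6 male high library 3 (adjusted p = 0.0538), and neither passed with the block (adjusted p = 0.132 and 0.0896). Il7r was lower, with 0, 0.363 and 1.75 CPM on high against 0.247, 0.481 and 3.22 CPM on low isoleucine (-1.13 ± 0.22, adjusted p = 2.64e-05), and 21 of 24 high isoleucine libraries were below the class mean. All 8 Kupffer cell markers were higher on the high diet as well, and 5 of 8 leukocyte markers.

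Males of the 2 strains differed in this contrast, which was broken down by class after the data had been seen. In B6 males 11 members were higher and 0 lower on high than on low isoleucine, beside 14.2% of all genes higher and 11.6% lower, and 7 of these were B cell genes. In DBA males 0 were higher and 5 lower, beside 8.02% of all genes higher and 6.27% lower. In B6 females 3 members (Bank1 1.34, Gzmb 1.31 and Cd52 0.79) passed, all higher, beside 19.1% of all genes, and in DBA females 0, beside 14.9%. Without B6 female high library 3, Gzmb was at 0.80 (adjusted p = 0.226) and Cd52 had an adjusted p of 0.112. The block on title numbers gave 0.133 for Gzmb, 0.0513 for Cd52 and 0.0178 for Bank1.

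Cd79a had 0.183, 0.353 and 0.491 CPM (lowest, median and highest of 6) in DBA males on high isoleucine, against 0.481, 0.880 and 1.72 CPM on low (log2 fold change -1.41 ± 0.46, SE, adjusted p = 0.0276). In B6 males it had 1.25, 2.15 and 4.51 CPM on high, against 0.178, 0.722 and 1.36 CPM on low (1.72 ± 0.40, adjusted p = 9.55e-04). In DBA males the highest value on high isoleucine barely passed the lowest on low isoleucine, and in B6 males the ranges overlapped at their ends only, in the opposite order. Igkc had 1.86, 2.61 and 3.65 CPM on high and 2.60, 3.70 and 6.93 CPM on low isoleucine in DBA males, and 4.46, 14.5 and 31.2 CPM on high and 1.97, 3.65 and 5.03 CPM on low in B6 males, where it rose by 2.11 ± 0.44 (log2, SE, adjusted p = 2.81e-04). Ighm rose in B6 males to 6.91, 12.6 and 36.7 CPM on high, against 2.04, 3.16 and 7.66 CPM on low (1.95 ± 0.44). Ms4a1 (1.85), Pax5 (1.74), Jchain (1.52) and Cd79b (1.10) were the other B cell genes that rose there, with Cd8a (1.66), Ccr7 (1.36), Cd52 (1.0) and Zap70 (1.0) among the T cell genes. Jchain was at 0.90 without B6 male high library 4 (adjusted p = 0.178) and at 0.88 with the block (adjusted p = 0.299), and Pax5 had an adjusted p of 0.0501 without that library. Cd8a lost the call when any of 4 libraries was left out (adjusted p = 0.124 without B6 male high library 3) and had an adjusted p of 0.0523 with the block.

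In DBA males the strongest fall was that of Il7r, to 0, 0.0393 and 0.187 CPM on high isoleucine, against 0.247, 0.365 and 0.499 CPM on low (-2.45 ± 0.55, SE, adjusted p = 9.63e-04). The high and low groups did not overlap. The control group, at 0.107, 0.169 and 0.332 CPM, had a median between theirs and overlapped both. Il7r passed in neither comparison with control in DBA males. Ms4a1 (-1.47), Cd27 (-1.45), Cd79a and Lck (-1.06) fell as well, but of the 5 only Il7r kept the call whichever library was left out, and without DBA male low library 1 Ms4a1 was at -0.92 (adjusted p = 0.254). The difference of the high against low effect between DBA and B6 males was itself tested, also after the data had been seen. Of the members, 5 passed beside 5.05% of all genes. They were Cd79a (-3.13 ± 0.61, log2, DBA minus B6, adjusted p = 0.00182), Ms4a1 (-3.32 ± 0.70, adjusted p = 0.00387), Igkc (-2.71 ± 0.63, adjusted p = 0.00798), Cd79b (-1.66 ± 0.43, adjusted p = 0.0167) and Ighm (-2.30 ± 0.61, adjusted p = 0.0203), all B cell genes. Ighm had an adjusted p of 0.0551 without B6 male high library 4. None of these 5 passed with the block on title numbers, where the adjusted p-values were 0.0633, 0.118, 0.139, 0.0829 and 0.158 in the same order.

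**Figure D5:**
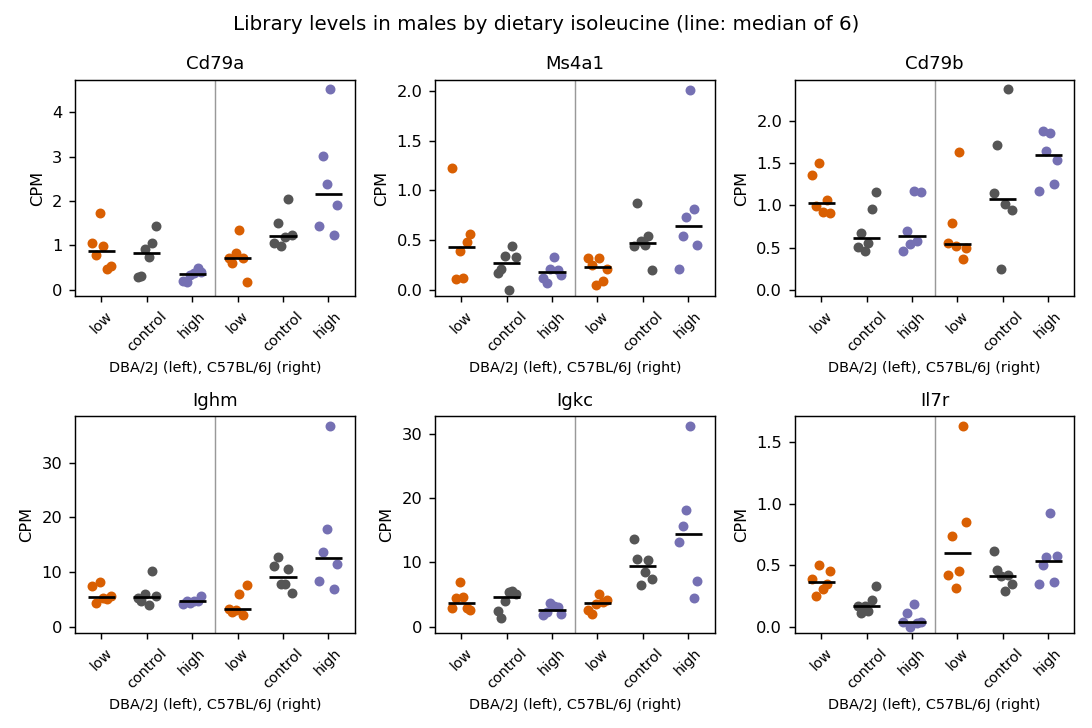
CPM per library (points) of Cd79a, Ms4a1, Cd79b, Ighm, Igkc and Il7r in DBA/2J males (left of each panel) and C57BL/6J males (right) on low, control and high isoleucine, 6 libraries per group. Cd79a, Ms4a1, Ighm and Igkc reach their highest values in B6 males on high isoleucine, Cd79b has its highest mean there (1.55 CPM), and Il7r lies lowest in DBA males on high isoleucine.

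Other cell markers moved in the same contrast in males. In B6 males 7 of 8 Kupffer cell markers, 5 of 8 leukocyte markers and 9 of 19 further B and plasma cell genes were higher on high than on low isoleucine, with summed Kupffer cell levels of 133 to 626 CPM on high and 82.1 to 198 CPM on low. In DBA males 0 of the 8 Kupffer cell markers and 0 of the 8 leukocyte markers passed, with summed Kupffer cell levels of 100.5 to 224 CPM on high and 149 to 225 CPM on low, and 3 of 19 further B and plasma cell genes were lower. Their part in the lymphocyte results was not tested.

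The variation from library to library within groups was compared for single genes of the 3 kinds. Deviations of log2 CPM from the group mean were correlated for 3 pairs over 72 libraries, with two-sided permutation tests within groups. Cd3e and Cd79a had Pearson's r = 0.0901 (permutation p = 0.494, adjusted p = 0.741) and a Spearman coefficient of 0.109 (permutation p = 0.406, adjusted p = 0.576). Cd79a and Nkg7 had r = -0.00124 (permutation p = 0.993, adjusted p = 0.993) and a Spearman coefficient of 0.0735 (permutation p = 0.576, adjusted p = 0.576). For Cd3e and Nkg7, both expressed by cytotoxic T cells, r was 0.284 (permutation p = 0.0387, adjusted p = 0.116) and the Spearman coefficient 0.336 (permutation p = 0.0102, adjusted p = 0.0307). Without the 2 libraries farthest from the median of the first gene of each pair, r was 0.0774, 0.104 and 0.200 in that order. At counts this low a weak correlation is not a finding.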

How the data were processed

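Liver RNA was sequenced in 72 libraries of 12 strain, sex and diet groups, as the strain, sex and diet labels give them; titles tied table columns to libraries. One label describes polyA-enriched stranded mRNA libraries, and another cites a guide for stranded total RNA. Per the labels' protocols, the authors mapped reads to GRCm38.p5 and deposited 1 expected count per Ensembl gene and library; the aligner and the program that made the counts are not given in the sources that were used here. R 3.4.3, edgeR and limma are named in the submitters' processing notes. The deposited tables of the authors' own comparisons were not used here. The last of 50308 lines is incomplete and was dropped. Symbols and positions came from a GRCm38 annotation.

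Expected counts were rounded to whole numbers, low genes were removed with edgeR's filterByExpr and TMM factors lay between 0.841 and 1.14. All groups were fitted together by edgeR's quasi-likelihood method (robust dispersion estimates, common coefficient of variation 0.21), and p-values were adjusted by Benjamini-Hochberg over 14954 genes with a threshold of 0.05. A log2 fold change averages the differences within strata. Sums and levels are TMM-scaled CPM; levels per kilobase divide by the union of exons. The fit was tested on simulated data. Alternatives were RLE factors, no filter, at least 1 CPM in 6 libraries, limma voom with library weights, limma voom with the title number as a block, DESeq2 and leaving out each library. Replicate numbers follow accession order and are names only. The pairs that share a title number lie within groups (36 pairs, correlation 0.244 of their values in the block fit), so no diet was paired with another. The members and marker lists were chosen with earlier results of these data known; all members are accounted for, and from each marker list only genes among the 4 with the lowest adjusted p in a mean comparison are named. Tools were edgeR 4.0.16, limma 3.58.1 and DESeq2 1.42.0 in R 4.3.3.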

Additional observations from a re-analysis of the deposited data

Results flagged for a closer look

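Single libraries stood apart from the other 5 of their group in 28 of 206 group values examined (13.6%). No chance rate was set beside this share, because CPM of low genes need not be normally distributed and the sums repeat the same genes. Several of the 28 values came from the same library. B6 female control library 1 had 140 CPM of the 8 B cell genes together, beside a group median of 33.7 CPM, with Ighm at 70.3, Igkc at 55.1 and Jchain at 4.75 CPM. B6 female low library 3 had a B cell sum of 95.3 CPM, beside a median of 23.2 CPM, with Ighm at 50.1 and Jchain at 3.28 CPM. B6 male high library 4 had 36.7 CPM of Ighm and 2.01 CPM of Ms4a1, and DBA male control library 5 had 10.1 CPM of Ighm and 2.24 CPM of Jchain. Cd79a reached 2.74 CPM in DBA female high library 6, and Cd79b 1.63 CPM in B6 male low library 4.

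T cell genes stood out in other libraries. B6 female low library 2 held 3.22 CPM of Il7r, 10.5 CPM of Zap70, 1.33 CPM of Ltb and 1.22 CPM of Cd3g. B6 male high library 3 held 13.9 CPM of Cd52 and 1.19 CPM of Ccr7. Cd3g reached 1.55 CPM in DBA female control library 3. B6 female control library 6 had 7.04 CPM of the 6 NK and cytotoxic genes together, with Nkg7 at 2.60 CPM, and 1.90 CPM of Cd3e. In B6 female high library 3 the NK and cytotoxic sum was 6.30 CPM, with Gzmb at 2.30 and Gzma at 1.15 CPM. That sum was 3.0 CPM in DBA female high library 2 and 2.14 CPM in DBA female low library 6.

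Effects that differed between strains or sexes by edgeR's test of the difference itself were, on the log2 scale, those of low isoleucine on Cd79b between strains (1.23, adjusted p = 0.0206) and on Nkg7 (1.65, adjusted p = 0.0133), Gzmb (2.03, adjusted p = 0.0452) and Ltb (1.15, adjusted p = 0.0154) between sexes. The effect of sex on Cd8a differed between strains (-1.94, adjusted p = 0.00753). The effect of high against low isoleucine differed between DBA and B6 males for Cd79a (-3.13, adjusted p = 0.00182), Ms4a1 (-3.32, adjusted p = 0.00387), Cd79b (-1.66, adjusted p = 0.0167), Igkc (-2.71, adjusted p = 0.00798) and Ighm (-2.30, adjusted p = 0.0203). That contrast between males was chosen after the data had been seen. With the block on title numbers none of the differences in this paragraph passed except that of Cd8a (adjusted p = 0.0332), which rests on very few reads. The Gzmb difference also lost the call when any of 24 libraries was left out.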

How the results depend on the processing

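No call reversed direction under any alternative. RLE factors and DESeq2 kept all 164 calls of a member past the threshold. The title number as a replicate block lost 48 of them, no filter 17 and limma with library weights 14; all 96 calls on members that the filter of 1 CPM in 6 libraries left were kept. Numbers of members called below are set beside those of the report. With the replicate block they were 0 (1) higher and 2 (6) lower for low against control, 2 (4) higher for high against low, 0 (1) and 0 (3) for the strain and sex differences of the low effect, and 0 (5) for the strain difference in males. By class the block gave 1 (5) lower for high against low in DBA males and 1 (3) in B6 females, and for low against control 0 (1) in DBA females, 0 (2) in B6 males and 2 (5) in B6 females. It gave 16 (20) lower in DBA and 21 (21) lower in males. The filter of 1 CPM in 6 libraries, which leaves fewer members, gave 9 (20) lower in DBA, 11 (21) in DBA males and 6 (13) in DBA females, 11 (21) lower in males, 11 (22) within DBA and 10 (17) within B6. It gave 1 (3) for the sex difference of the low effect, 0 (1) for the strain difference of the sex effect, 3 (5) for low against control in B6 females and 1 (0) for high against low in DBA females. Without a filter there were 1 (0) higher in DBA, 2 (5) lower for high against low in DBA males, and for low against control 0 (1) in DBA females and 0 (2) in B6 males. Library weights gave 3 (1) for the strain difference of the sex effect, 1 (2) for low against control in B6 males, and for high against low 1 (5) lower in DBA males and 1 (0) in DBA females. DESeq2 gave 3 (1) for the strain difference of the sex effect and 1 (0) for high against low in DBA females. The cause of these shifts was not tested, except that the stricter filter tests fewer members.

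Leaving out each library in turn gave 19 to 21 members lower in DBA (18 to 22 in males, 12 to 13 in females) and 0 higher, and 21 to 22 lower in males (22 within DBA, 13 to 18 within B6) and 0 higher. For low against control it gave 1 higher and 4 to 7 lower, with 0 to 1, 0 to 2, 0 to 3 and 2 to 5 called in DBA males, DBA females, B6 males and B6 females, and 0 for high against control throughout. For high against low it gave 3 to 5 higher and 1 to 2 lower, with 2 to 5 lower in DBA males, 0 to 2 called in DBA females, 9 to 11 higher in B6 males and 2 to 3 called in B6 females. The strain difference of the low effect kept 1, the sex difference 2 to 3, the strain difference of the sex effect 1 to 4 and the strain difference in males 4 to 6. With CPM by library total the numbers above 0.5 CPM were 8, 15 and 13 in place of 9, 13 and 12 in DBA males on control and DBA females on control and high isoleucine, and 10 in place of 11 in B6 males on control. Without Ighm, Igkc and Jchain the ratio of summed B cell levels was 0.778 in place of 0.612 for DBA against B6 and 0.646 in place of 0.576 for males against females. Levels below about 0.245 CPM rest on 3 counts or fewer in the shallowest library.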
